A study of Homo sapiens with 12 samples.

Results

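The 8 genes described here, FOXA1, HOXB13, GRHL2, GATA2, SPDEF, KLF5, ETV1 and SOX9, encode transcription factors that open or bind chromatin at prostate enhancers or set the identity of prostate luminal cells. They were taken by symbol from the authors' RNA table and joined by transcript to both count tables, which gave 8 of 19038 transcripts, 1 per gene. The rule uses their names and no measured value. The samples were 12 libraries from 6 tumours of 22Rv1, a human prostate cancer cell line of castration-resistant type, grown under the skin of male immunodeficient NSG mice injected at 6 to 8 weeks of age. Treatment began at tumour volumes of 70 to 100 mm3. In 3 tumours zotatifin had been given at 0.3 mg/kg in 5% dextrose by intraperitoneal injection, and in the other 3 the vehicle alone, 5% dextrose, and all tumours were taken 6 h after treatment. The p-values below measure the spread between tumours of 1 cell line, and such tumours can also hold mouse stroma. Each tumour gave 1 library of ribosome footprints (24 to 34 nt fragments of monosomes) and 1 of total RNA.

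Zotatifin clamps the RNA helicase eIF4A, which clears structure from mRNA leaders for the scanning ribosome, onto purine-rich stretches. Prostate cancer cells depend on enhancers that respond to androgen hormones, many of which lie in compacted chromatin. Pioneer factors such as FOXA1 and GATA2 bind there first and make the site accessible, and HOXB13 binds sites that are active in prostate tumours. Some of the other factors, such as GRHL2 and SPDEF, act in epithelial or luminal cells.

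Footprint libraries held 838135 to 1540867 counts with zotatifin and 1592316 to 2013968 with vehicle, and RNA libraries 6594884 to 8153674 with zotatifin and 5761921 to 7121802 with vehicle. Levels below are CPM, counts scaled to the library total after TMM, so they are relative and would hide a shift common to every mRNA. Markers of luminal prostate cells were present in both treatments, at very unequal levels. KRT8, a luminal keratin, had 2210 ± 238 CPM of footprints with zotatifin and 2060 ± 372 CPM with vehicle (SD, n = 3 each). The kallikrein KLK3 had only 17.5 ± 1.48 CPM of footprints with zotatifin and 16.7 ± 6.76 CPM with vehicle. The 4 basal markers together reached 6.07 to 10.3 CPM of footprints with zotatifin and 5.72 to 10.3 CPM with vehicle. Summed footprints of 10 fibroblast markers were lower with zotatifin, at 140 to 259 CPM against 461 to 797 CPM with vehicle, and their RNA was at 69.4 to 132 CPM against 216 to 364 CPM. Of the 6 fibroblast markers tested in each assay, 5 fell in footprints (COL1A1, COL1A2, COL3A1, SPARC and FBN1), against 3.92% of all genes tested. Of these, 4, all but COL3A1, fell in RNA, against 0.907% of all genes. The other marker tested, LUM, was called in neither, with log2 changes of −0.61 in footprints and 0.47 in RNA. Of myeloid markers, CSF1R and PTPRC, the 2 tested, fell in footprints. In RNA CSF1R and LAPTM5 fell of 3 tested, and CD68 was not called (log2 change −0.41). Summed footprints of 7 myeloid markers were at 8.41 to 11 CPM with zotatifin and 18.9 to 85.1 CPM with vehicle, with no CD14 footprint and no TYROBP RNA read in any library. In bulk tumours, fewer cells of a type and less RNA per cell cannot be told apart, and the part of the stroma in the results below was not tested.

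The RefSeq promoter table matched 5 of the 8 factors, with 12 starts in all. The 250 bases before the start are shown for FOXA1 and SPDEF, the matched factors with a lone start, because their mRNAs were the most heavily read of those 5 and their footprints did different things relative to RNA. The sequences are RefSeq's on GRCh38.p14, written 5′ to 3′ on the gene's strand. Capitals mark letters that match a motif of these factors' families.
FOXA1 promoter, chr14:37595250-37595499, minus strand: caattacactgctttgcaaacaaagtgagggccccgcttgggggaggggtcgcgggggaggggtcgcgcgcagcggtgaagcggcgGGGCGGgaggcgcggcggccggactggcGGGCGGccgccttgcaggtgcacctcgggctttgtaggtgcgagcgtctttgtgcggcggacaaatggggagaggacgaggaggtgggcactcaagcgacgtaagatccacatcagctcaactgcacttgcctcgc
SPDEF promoter, chr6:34556330-34556579, minus strand: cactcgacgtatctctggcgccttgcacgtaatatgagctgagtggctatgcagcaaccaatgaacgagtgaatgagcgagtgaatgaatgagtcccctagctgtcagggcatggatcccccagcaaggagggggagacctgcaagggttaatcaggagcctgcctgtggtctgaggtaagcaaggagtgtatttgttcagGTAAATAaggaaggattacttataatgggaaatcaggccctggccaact
Both strands were searched, and 4 of the motifs looked for are given here. The forkhead motif was read as TGTTTAC, with a second spelling searched alongside it, TATTTAC. The motif of GATA factors was read as AGATA, or with its first letter changed as TGATA, when followed by a purine. The core bound by ETS factors was CCGGAA, and the GC box bound by KLF and SP proteins was GGGCGG. The FOXA1 window held 2 GC boxes, 164 and 136 bases before the start, a motif found in 53.7% of 22199 starts of protein-coding genes. The SPDEF window held 1 forkhead match, 49 bases before the start, and 4.26% of the starts held such a match. GATA matches stood in 17.9% of all starts and ETS matches in 18%. None of these overlapped another in the windows shown.

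The first 50 transcribed bases, where the leader begins, also differed among the matched factors. In FOXA1 80% of them were G or C, which is above 91.6% of all starts (median 64%), and 42% were purines (all starts, median 52%). In SPDEF 58% were G or C and 28% were purines, a purine share above only 1.13% of all starts, and its longest run of purines was 2 bases. One start of GATA2 had 68% purines and a run of 10, and its other start 52% and a run of 4. The starts of KLF5 had 34% and 54% purines, and the 6 starts of ETV1 had 36% to 58%. These shares describe RefSeq starts, and which start the tumours used was not analysed here.

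The genes lie, in the RefSeq annotation of GRCh38.p14, on chromosome 14 at 37589552 to 37595249 (FOXA1), chromosome 17 at 48724763 to 48728750 (HOXB13) and 72121020 to 72126416 (SOX9), chromosome 8 at 101492439 to 101681200 (GRHL2), chromosome 3 at 128479422 to 128493201 (GATA2), chromosome 6 at 34537802 to 34556329 (SPDEF), chromosome 13 at 73054976 to 73077538 (KLF5) and chromosome 7 at 13891229 to 13991425 (ETV1).

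Footprints show how many ribosomes all copies of an mRNA carried together, relative to other mRNAs, so they also follow the amount of RNA. Footprints of 2 of the 8 factors, the pioneer factor FOXA1 and the SOX family factor SOX9, rose with zotatifin, and none fell, where 7.14% of 9544 genes tested were called (3.22% upward and 3.92% downward). All 8 passed the low-count filter. The median log2 change over the 8 was 0.25, against 0.003 over all genes tested, and 6 of the 8 were above 0, as were 50.3% of all genes. Together the factors took 7.67, 8.23 and 8.64 of every 10000 footprints in the zotatifin tumours, against 6.26, 6.46 and 6.69 in the vehicle tumours.

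FOXA1 footprints were at 214, 239 and 299.5 CPM in zotatifin tumours 1 to 3 and at 170.5, 171 and 169.7 CPM in vehicle tumours 1 to 3. The vehicle tumours lay close together, and every zotatifin tumour lay above them, the third farthest. The rise was 1.48-fold (log2 change 0.57 ± 0.12, SE, edgeR quasi-likelihood test, adjusted p = 0.0035), and it was above the change of 95.2% of the genes tested. Without zotatifin tumour 3 the log2 change was 0.40 and no longer called (adjusted p = 0.055), and FOXA1 stayed called without any other library.

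SOX9 marks progenitor-like and luminal cells in the prostate. Its footprints were at 234, 256 and 225 CPM in zotatifin tumours and 166, 165 and 216 CPM in vehicle tumours, so the third vehicle tumour came close to the zotatifin tumours without overlap. The log2 change was 0.39 ± 0.12 (SE, edgeR, adjusted p = 0.043). The call was lost without any 1 library other than that of vehicle tumour 3 (adjusted p 0.055 to 0.24, edgeR) and with DESeq2 (adjusted p = 0.067).

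HOXB13, a homeobox factor of the prostate lineage, had 68.5, 71.1 and 77.6 CPM of footprints with zotatifin and 53.1, 52.2 and 54 CPM with vehicle. The groups lay apart, and the log2 change of 0.46 ± 0.15 just missed the threshold (SE, edgeR, adjusted p = 0.052). SPDEF, an ETS factor of luminal and secretory epithelium, had 143, 148 and 134.5 CPM with zotatifin and 99.8, 127 and 112 CPM with vehicle. It lay apart as well, with a change of 0.33 ± 0.12 (adjusted p = 0.11). Footprints of 4 of the 8 factors were thus higher in all 3 zotatifin tumours than in any vehicle tumour, which held for 12.9% of all genes tested, and none was lower in all 3 (13.5% of all genes).

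In the remaining 4 factors the treatments overlapped in footprints. GRHL2, a Grainyhead factor that keeps epithelial junction genes active, had 53.8, 73.6 and 58.9 CPM with zotatifin and 60, 88.8 and 66.7 CPM with vehicle (log2 change −0.23, 95% interval −0.57 to 0.11, adjusted p = 0.44). The zinc finger factors GATA2 and KLF5 and the ETS factor ETV1 had few footprints, with 9 to 21 counts per zotatifin library for GATA2, 20 to 32 for KLF5 and 18 to 49 for ETV1. Their intervals were wide, from −0.41 to 0.76 for GATA2, −0.34 to 0.59 for KLF5 and −0.51 to 0.41 for ETV1.

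**Figure D1:**
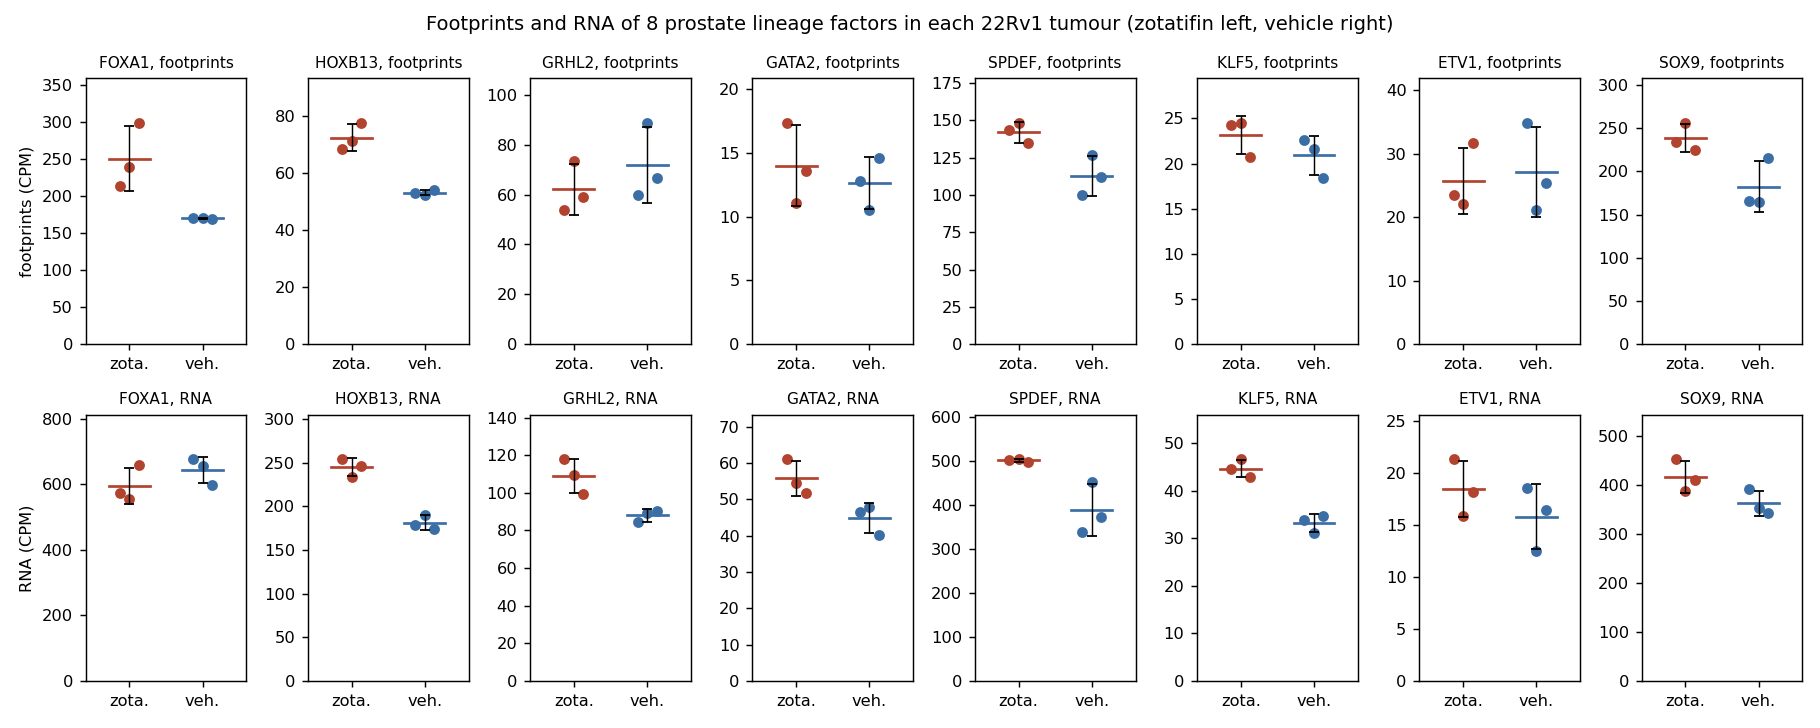
Footprints (upper row) and RNA (lower row) of each factor in CPM, from 0, with a point per tumour, a coloured line at the mean and black bars of 1 SD (n = 3), zotatifin left in red and vehicle right in blue. FOXA1 footprints stand at 251 ± 44.2 against 170 ± 0.665 CPM while its RNA overlaps, and HOXB13 is higher in both rows.

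In RNA the picture was another one. None of the 8 factors was called, where edgeR called 1.72% of 13118 genes (225; 0.808% upward and 0.907% downward). The unadjusted p was under 0.05 in 5 of the 8, all upward, as in 8.56% of all genes (9.74% downward). DESeq2 called 1, HOXB13, where it called 2.66% of the genes it gave an adjusted p. In those 5, HOXB13, KLF5, SPDEF, GATA2 and GRHL2, RNA was higher in each of the 3 zotatifin tumours than in any vehicle tumour, which was so for 12.3% of all genes. The median log2 change over the 8 was 0.31, against −0.002 over all genes, and 7 of the 8 were above 0 (49.7% of all genes).

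HOXB13 RNA was at 254, 233 and 247 CPM with zotatifin and at 178, 190.5 and 174 CPM with vehicle. The groups were far apart for their spread, the log2 change was 0.43 ± 0.12 (SE) and the adjusted p was 0.055 (edgeR), or 0.0060 with DESeq2. The authors' deposited DESeq2 table gives HOXB13 the same RNA change, 0.43, with an adjusted p of 0.0061. That comparison called 2.47% of its genes and rests on the same RNA libraries, so it is no separate test. Without zotatifin tumour 2, the edgeR test called it (adjusted p = 0.026).

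KLF5, which acts in proliferating epithelium, had 44.5, 46.6 and 42.9 CPM of RNA with zotatifin and 33.8, 31.1 and 34.6 CPM with vehicle (log2 change 0.43 ± 0.14, SE, edgeR, adjusted p = 0.12). SPDEF RNA was at 502.5, 504 and 499 CPM with zotatifin, and at 339, 454 and 372 CPM with vehicle (0.37 ± 0.13, adjusted p = 0.13). The spread of SPDEF thus came from the vehicle tumours. GATA2 RNA was at 60.9, 54.5 and 51.7 CPM with zotatifin and 46.3, 48 and 40.1 CPM with vehicle (0.32 ± 0.14, adjusted p = 0.22). GRHL2 RNA was at 118, 109.6 and 99.6 CPM with zotatifin and 84.3, 89.4 and 90.4 CPM with vehicle (0.31 ± 0.12, adjusted p = 0.17).

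FOXA1 was the factor whose RNA estimate lay below 0. It had 572, 554 and 659 CPM with zotatifin and 676, 657 and 598 CPM with vehicle, with overlap, and its log2 change was −0.11 (95% interval −0.37 to 0.14, edgeR, adjusted p = 0.66). SOX9 RNA, at 453, 387.5 and 410.2 CPM with zotatifin and 393, 353 and 342.5 CPM with vehicle, overlapped too (0.20 ± 0.12, adjusted p = 0.40). ETV1, an ETS factor known from gene fusions in prostate cancer, had the lowest RNA counts of the 8 (102 to 176 per zotatifin library and 76 to 118 per vehicle library) and a change of 0.23 ± 0.20 (adjusted p = 0.58).

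**Figure D2:**
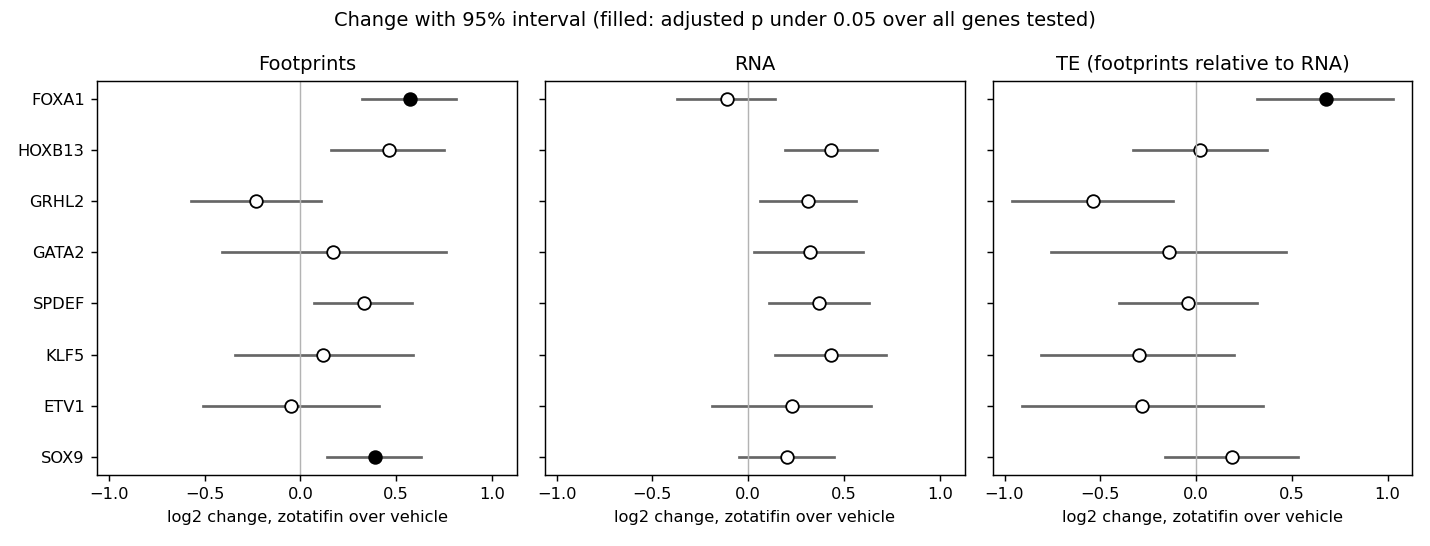
Log2 change of each factor, zotatifin over vehicle, in footprints, RNA and TE, with 95% intervals from the edgeR fits (filled points: adjusted p under 0.05 over all genes tested). FOXA1 is filled in footprints (0.57) and TE (0.68) with RNA at −0.11, SOX9 is filled in footprints (0.39), and no point is filled in RNA.

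Translational efficiency (TE) is the ratio of footprints to RNA, here the log2 ratio of the CPM values with a prior count of 2. It can be set between genes as far as both assays counted the same part of the transcript, which is not given in the sources used here. Most of the factors stood low in it. In vehicle tumours FOXA1 averaged −1.90 ± 0.09 (SD, n = 3), SPDEF −1.76 ± 0.06, HOXB13 −1.74 ± 0.09 and GATA2 −1.69 ± 0.34, where the median of 9454 genes was −0.13. These values lay at percentiles 8.68, 10.2, 10.7 and 11.3 of all genes. SOX9 (−0.99 ± 0.30), KLF5 (−0.59 ± 0.20) and GRHL2 (−0.29 ± 0.26) followed upward, and ETV1 stood highest at 0.81 ± 0.13 (percentile 77.8). In this order ETV1 lay apart from GRHL2, and SOX9 from GATA2. All other neighbours overlapped in their 3 tumours.

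With zotatifin the order differed in several places. GATA2 was the last of the 8 with zotatifin and the fifth with vehicle, and KLF5 and SOX9 changed places, all of them overlapping neighbours on at least 1 side in both treatments. FOXA1 was the factor that came to stand apart from both of its neighbours. Its TE was at −1.41, −1.21 and −1.13 in zotatifin tumours and at −1.98, −1.93 and −1.81 in vehicle tumours. In zotatifin tumours it was the fifth of the 8 from the top, and in vehicle tumours the last. With zotatifin it stood below KLF5 and above HOXB13 without overlap with either. Its percentile among all genes was 15.9 to 22.0 in zotatifin tumours and 8.84 to 9.13 in vehicle tumours. HOXB13 averaged −1.73 ± 0.11 with zotatifin against −1.74 ± 0.09 with vehicle, and SPDEF −1.81 ± 0.06 against −1.76 ± 0.06.

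**Figure D3:**
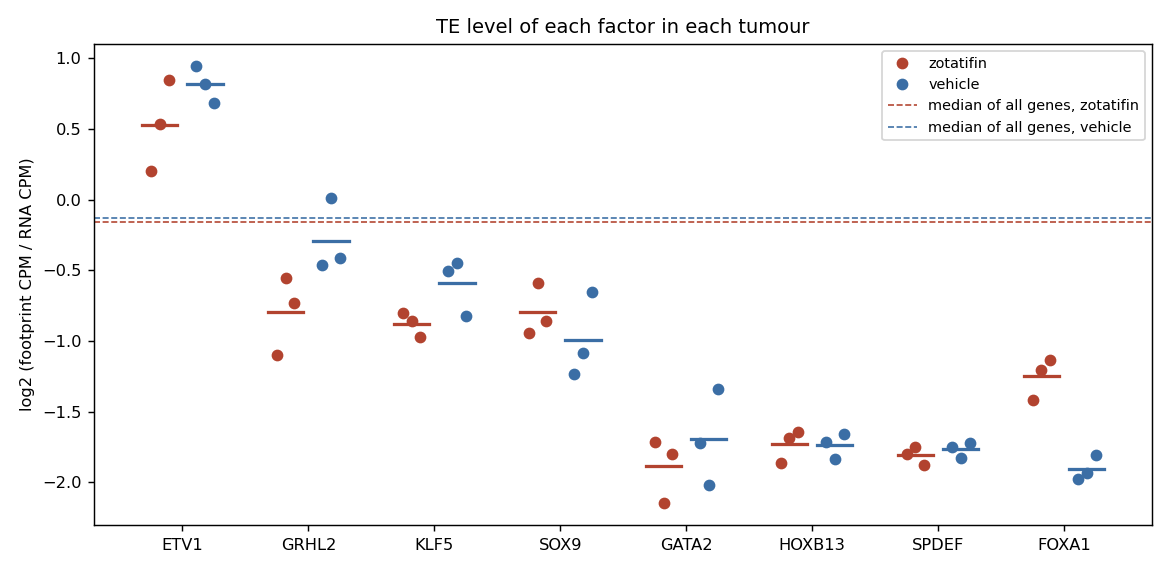
TE level (log2 of footprint CPM over RNA CPM) of each factor in each tumour, zotatifin left in red and vehicle right in blue, with a line at each mean and dashed lines at the median of all 9454 genes (−0.16 with zotatifin, −0.13 with vehicle). FOXA1 has the lowest mean with vehicle, where it overlaps HOXB13, SPDEF and GATA2, and it stands clear of them with zotatifin.

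Whether TE changed was asked with an assay-by-treatment term in a fit of all 12 libraries. This fit held no term for the tumour, so it took both libraries of a tumour as independent. A change was called for 1 of the 8 factors, FOXA1, upward, where 2.04% of 9454 genes were called (0.444% upward and 1.6% downward). The unadjusted p was under 0.05 in 1 factor upward (5.68% of genes) and 1 downward (9.38%). FOXA1 rose by 1.6-fold in TE (log2 change 0.68 ± 0.17, SE, edgeR, adjusted p = 0.033), above the change of 96.4% of genes. When any 1 tumour was left out, again with no tumour term in the fit, the size stayed between 0.60 and 0.76. The call was then kept only without zotatifin tumour 2. The adjusted p was 0.061 and 0.13 without zotatifin tumours 1 and 3, and 0.17, 0.13 and 0.099 without vehicle tumours 1, 2 and 3. DESeq2 called FOXA1 as well, where it called 2.86% of the genes it gave an adjusted p. The authors' deposited table gives FOXA1 a TE change of 0.73 on the log2 scale with an FDR of 2.4e-17, in a comparison that called 18.3% of 11446 genes.

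GRHL2 was at the other end. Its TE was at −1.10, −0.55 and −0.73 in zotatifin tumours and −0.46, 0.01 and −0.41 in vehicle tumours, lower in all 3 (as for 15.5% of genes tested). The log2 change was −0.54 ± 0.21 (SE, edgeR, adjusted p = 0.18) and was not called. With the tumour as a replicate block, since both libraries of a tumour come from 1 lysate, it was called at −0.52 (adjusted p = 0.042), in a fit that called 9.14% of genes (864). FOXA1 was called in that fit too (0.67, edgeR, adjusted p = 0.00014), so that 2 of the 8 passed, 1 in each direction. The authors' deposited table gives GRHL2 a TE change of −0.52 on the log2 scale with an FDR of 0.0014.

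For the other 6 factors TE was not called in any fit. HOXB13 (0.02, 95% interval −0.33 to 0.37) and SPDEF (−0.04, −0.40 to 0.32) had estimates close to 0, with footprints and RNA higher by similar amounts. SOX9 was at 0.19 (−0.16 to 0.53), GATA2 at −0.14 (−0.76 to 0.47), ETV1 at −0.28 (−0.91 to 0.35) and KLF5 at −0.30 (−0.81 to 0.20). Over the 8, the median was −0.09, against −0.014 over all genes tested, and 3 of the 8 were above 0 (48.4% of all genes). The factors thus had RNA estimates in a common direction, FOXA1 apart, and TE estimates on both sides of 0.

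**Figure D4:**
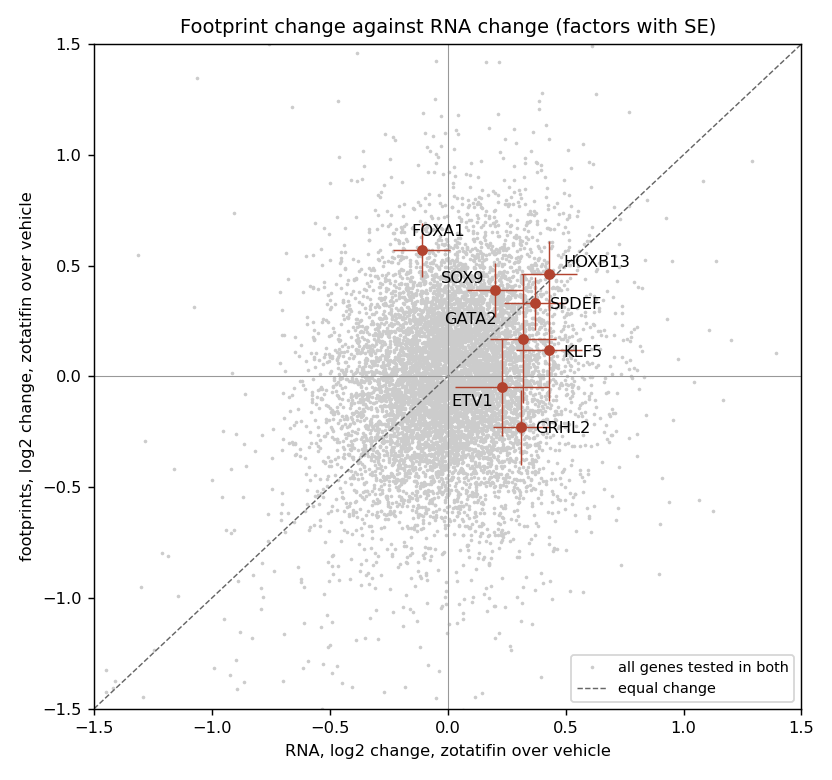
Footprint change against RNA change (both log2, zotatifin over vehicle) for the 8 factors in red with bars of 1 SE, and for 9454 genes tested in both assays in grey, of which 51 lie outside the axes. HOXB13 and SPDEF lie near the dashed line of equal change, FOXA1 lies above it at an RNA change of −0.11, and GRHL2 lies below it with 0.31 in RNA and −0.23 in footprints.

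The counts of calls over all genes moved with single libraries. Footprint calls numbered 185 without vehicle tumour 1, 415 without vehicle tumour 3 and 438 without zotatifin tumour 1, against 681 with all libraries. RNA calls numbered 11, 396 and 25 without vehicle tumours 1, 2 and 3, and 56 and 48 without zotatifin tumours 1 and 3, against 225. TE calls numbered 65 and 113 without zotatifin tumours 1 and 3, and 63, 91 and 60 without vehicle tumours 1, 2 and 3, against 193. Of the factors, 0 were called in footprints without zotatifin tumour 3, and both FOXA1 and SOX9 without vehicle tumour 3. FOXA1 alone was called without each of the other 4 libraries.

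Among 19 genes for cofactors that act with these factors at prostate enhancers, edgeR called 0 in RNA and 0 in TE (median log2 change 0 in RNA and 0.1 in TE). At an unadjusted p under 0.05 there were 3 upward and 2 downward in each of RNA (8.56% and 9.74% of all genes tested) and TE (5.68% and 9.38%). Of the cofactors with the most counts, ARID1A of the SWI/SNF remodeller had a log2 change of 0.20 in footprints and −0.16 in RNA, and the corepressor NCOR1 of 0.18 and 0.07. None of these passed the test. The gene whose profile over the 12 libraries was most like that of FOXA1 was ARID1B, which encodes another subunit of that remodeller. The root mean square difference of centred log2 CPM was 0.123, against a median of 0.982 over 4888 genes. For the other factors the closest profiles were those of CSRNP2 and SPECC1L (HOXB13), DDX23 and QRICH1 (GRHL2), TAF6 and SCRIB (GATA2), LAD1 and HOXB13 (SPDEF), PPP2R5D and PTPA (KLF5), ERI1 and OGA (ETV1) and HGS and PTK2B (SOX9). Their differences ran from 0.116 to 0.18, against medians over all genes of 0.486 to 1.08. HOXB13 and SPDEF, which differed by 0.13, were the only pair of factors among these. All these likenesses, that of FOXA1 to ARID1B included, rest on the level of TE as well as on the treatment. A profile picked as the closest lies below the median by construction.

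Of 23 relatives of the factors in the FOXA, HOX, GRHL, GATA, KLF, ETS and SOX families, 15 were tested in footprints and 1 rose, HOXD13, and 16 in RNA and 1 rose, SOX4. None of 11 was called in TE by edgeR, and none fell in footprints or RNA. At an unadjusted p under 0.05 there were 5 of 15 upward in footprints (10.3% of all genes tested), 3 of 16 upward in RNA (8.56%) and 1 of 11 downward in TE (9.38%). SOX4, a SOX factor of progenitor and tumour cells, had 172 ± 5.33 CPM of RNA with zotatifin and 100 ± 16.3 CPM with vehicle (SD, n = 3 each; log2 change 0.78 ± 0.13, SE, edgeR, adjusted p = 0.0046). This call was lost without vehicle tumour 1 (adjusted p = 0.073). SOX4 footprints had a log2 change of 0.18 ± 0.19 (adjusted p = 0.64). HOXD13 footprints were at 23.9 ± 7.82 CPM with zotatifin and 11.5 ± 2.73 CPM with vehicle (1.01 ± 0.29, adjusted p = 0.031), while its RNA had 3 counts in the zotatifin libraries together and 0 in the vehicle libraries. That call was lost without zotatifin tumour 1 or 2 or vehicle tumour 1 (adjusted p up to 0.19). EHF, an ETS factor of epithelia with the most counts of these relatives, had log2 changes of −0.09 in footprints and −0.14 in RNA, neither called.

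Of luminal and androgen-regulated genes, 20 were tested in RNA and 19 in TE. None was called in RNA (median log2 change 0.03) or in TE (median −0.04) by edgeR. An unadjusted p under 0.05 was met in RNA by 1 upward (8.56% of all genes tested) and 1 downward (9.74%). In TE it was met by 1 upward (5.68%) and 2 downward (9.38%). In footprints 19 were tested, where 3.22% of all genes tested were called upward and 3.92% downward. Among those called were the luminal keratin KRT18, which rose, and FOLH1, the prostate-specific membrane antigen, which fell. KRT18 footprints were at 2470 ± 218 CPM with zotatifin and 1910 ± 310 CPM with vehicle (0.37 ± 0.11, SE, adjusted p = 0.046), and FOLH1 at 44.8 ± 4.14 CPM with zotatifin and 66.2 ± 7.19 CPM with vehicle (−0.57 ± 0.16, adjusted p = 0.027). The KRT18 call was lost without zotatifin tumour 1 or 3 or vehicle tumour 1 (adjusted p up to 0.33), and the FOLH1 call without zotatifin tumour 1 or 3 or vehicle tumour 1 or 3 (up to 0.12) and with DESeq2 (0.094). The kallikrein KLK3, which encodes prostate-specific antigen, had log2 changes of 0.07 in footprints and −0.35 in RNA, and the androgen-induced chaperone FKBP5 of −0.04 and 0.11, none of them called.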

How the data were processed

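The authors deposited raw counts per transcript for 19038 (RNA) and 19037 (footprints) transcripts. The authors' deposited RNA table gives the mean level as a signal in normalized counts, the log2 fold change, a Wald score and a p-value. Their footprint table gives an estimate read from the values as natural log (ln) with an FDR, a q-value: over 1566 genes it had weights of 0.665 and −0.666 on the log2 footprint and RNA changes (ln 2 is 0.693), and it was divided by ln 2. Per the submitters' processing notes, cutadapt 2.3, UMI-tools, Bowtie2 2.3.5, DESeq2 and hg38 were used. Their order, the region counted and any removal of mouse reads were not found in the labels or headers.

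Groups came from titles and column names. The treatment field of 6 of 12 samples goes against its title, and a compound code in column names was read as zotatifin. Replicates are separate tumours. All tests used edgeR 4.0.16 in R 4.3.3 (filterByExpr with a minimum count of 10 and a total of 15, TMM, robust quasi-likelihood F test, Benjamini-Hochberg over all genes tested, threshold 0.05). The SE is the log2 change over the square root of F. TE was tested as an interaction, with TMM within each assay and no tumour term in the main fit. Same-numbered footprint and RNA libraries of a treatment correlated at 0.217 to 0.440 after group means were removed (6 pairs), so numbers mark tumours. Across treatments they correlated at −0.0947 to 0.181, which gave no pairing.

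Alternatives were RLE scaling, DESeq2 1.42.0, no filter, a replicate block and leaving out each tumour. The fits were tested on simulated data with a true log2 change of 1, up or down. They recovered 82.2% of the changed genes in footprints, 80.2% in RNA and 58.6% in TE. False calls made up 4.71%, 8.14% and 3.45% of the calls. Changes as small as those of the factors were not simulated. Nor was the correlation between the footprint and RNA libraries of a tumour, so the TE rates do not cover it. Named genes were all 8 factors, called list genes whose treatments did not overlap, up to 4 more per list by mean count, and the closest profiles (up to 2 per factor) among genes averaging 50 counts or more in both assays. KLK3 and HOXA13 were added after their values were seen. Members and lists were chosen with earlier results of these data known. Promoters are RefSeq's on GRCh38.p14. Some list genes that the rule would name are not reported here.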

Additional observations from a re-analysis of the deposited data

How the results depend on the processing

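Of 240 factor values recomputed under another setting, 216 kept direction and side of the threshold. Most of these were uncalled in the main fit and stayed so, and some of them had no adjusted p from DESeq2. The calls were less stable when a tumour was left out. Those of SOX9 in footprints and FOXA1 in TE were each lost in 5 such fits, and that of FOXA1 in footprints in 1. DESeq2 called 416 genes in footprints, 1 of them a factor (FOXA1). These were 8.12% of the genes it gave an adjusted p, against 7.14% with edgeR. In RNA it called 327 genes (2.66%), 1 of them a factor (HOXB13). With no low-count filter, 624 genes (3.4%), with 1 factor (HOXB13) among them, were called in RNA. The cause of these shifts was not tested. RLE scaling changed no call among the factors. With the replicate number as a block across treatments, 527 genes (4.02%), with 1 factor (HOXB13) among them, were called in RNA. No call among the factors changed in footprints with that block. With the tumour as a block, 864 genes (9.14%), with 2 factors among them, were called in TE. When each tumour was left out, calls ran from 185 to 726 in footprints (0 to 2 factors), 11 to 396 in RNA (0 to 1 factor) and 60 to 146 in TE (0 to 1 factor). Directions that turned were those of estimates near 0. TE of HOXB13 was −0.0027 with no filter and −0.04 to 0.09 when a tumour was left out, TE of GATA2 was −0.32 to 0.04, and footprints of ETV1 were −0.26 to 0.19. Depth limits GATA2, KLF5 and ETV1 most, which had 9 to 71 footprints per library.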

Other observations

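Markers of the neuroendocrine state, an alternative to the luminal one, were summed to 273 to 387 CPM of footprints with zotatifin and 190 to 232 CPM with vehicle, and to 98.8 to 112 CPM of RNA with zotatifin and 105 to 138 CPM with vehicle (7 genes). None of the 4 tested in footprints and the 3 tested in RNA was called by edgeR. At an unadjusted p under 0.05 there were 2 upward in footprints (10.3% of all genes tested) and 1 downward in RNA (9.74%). The footprint sum held INSM1, a zinc finger factor of neuroendocrine cells, at 122 ± 62.9 CPM with zotatifin and 40.2 ± 4.23 CPM with vehicle (SD, n = 3 each, log2 change 1.55 ± 0.43, SE, edgeR, adjusted p = 0.12). INSM1 RNA had 8 counts in the zotatifin libraries together and 10 in the vehicle libraries. Footprints of HOXA13, a relative of HOXB13, were at 17.6 ± 5.27 CPM with zotatifin and 10.6 ± 1.48 CPM with vehicle (0.67 ± 0.29, adjusted p = 0.17), and its RNA had 18 counts in the zotatifin libraries together and 21 in the vehicle libraries.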
